A study of Homo sapiens with 6 samples.

Results

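The genes described here are 7 genes known as targets of the transcription factor p53, measured after ultraviolet (UV) light in Hep3B cells, a human hepatoma line known to lack p53. They are CDKN1A, GADD45A and PLK2, which act in cell cycle control, MDM2 and PPM1D, which act back on p53, the membrane protein gene CD82, and TRIB3. They were chosen by name, as every array feature annotated to one of them, which gave 7 of the 843 genes and 509 of the 45220 features of a splicing-sensitive microarray. Such an array carries many short probes per gene, each of which is called a feature here. UV-irradiated cells (10 J/m2, collected 6 h later) were compared with untreated cells of the same line on 6 two-colour arrays, so that both groups share the missing p53. The 3 biological replicates were each hybridized with the irradiated RNA in Cy5 (direct array) and again in Cy3 (dye-swap array). One cell line, one dose and one time were measured here. None of 11 liver and hepatoma marker genes had a feature, so the labelled origin of the cells could not be checked on the arrays.

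In cells that carry it, p53 is held low by the ubiquitin ligase MDM2, is released when DNA is damaged, and switches on genes that stop the cell cycle, repair DNA or start apoptosis. Some of these genes, MDM2 and the phosphatase gene PPM1D among them, encode proteins that turn p53 off again. Several of them also answer to other factors, such as ATF4 in the stress response, and UV lesions by themselves block the RNA polymerase that transcribes long genes.

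Values are log2 ratios of UV over untreated, so that a negative value means less signal in irradiated cells. The value of a gene on an array is the mean over its features. Direct and dye-swap arrays were averaged within a replicate, and the gene value is the mean of 3 replicates with the SE that limma moderates by drawing the spread of each gene towards that of the others. A gene was called where its adjusted p, from limma over all 775 genes tested, was under 0.05. Ratios on such arrays are relative to the whole labelled RNA, and in RNA from a culture fewer cells with a transcript and less of it per cell cannot be told apart.

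After UV, PLK2 was 1.88-fold lower, PPM1D 1.45-fold, TRIB3 1.18-fold and MDM2 1.13-fold lower, while GADD45A was 1.37-fold higher and CDKN1A and CD82 were each 1.07-fold higher. All 7 members were called, 4 lower and 3 higher. The background was high, since 71.7% of the 775 genes were called, 41.4% lower and 30.3% higher, so a call by itself says little about a member. Sizes set the members apart more than calls did. With a fold over 1.3 in addition, 3 of the 7 passed, PLK2 and PPM1D lower and GADD45A higher, beside 18.8% of genes that were lower and 2.06% that were higher by that rule. The median gene lay at -0.03. Among the 466 genes with 3 or more features, of which 9.44% passed the same rule (9.01% lower and 0.429% higher), PLK2 had the 4th lowest and PPM1D the 20th lowest value, and GADD45A had the highest.

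**Figure D1:**
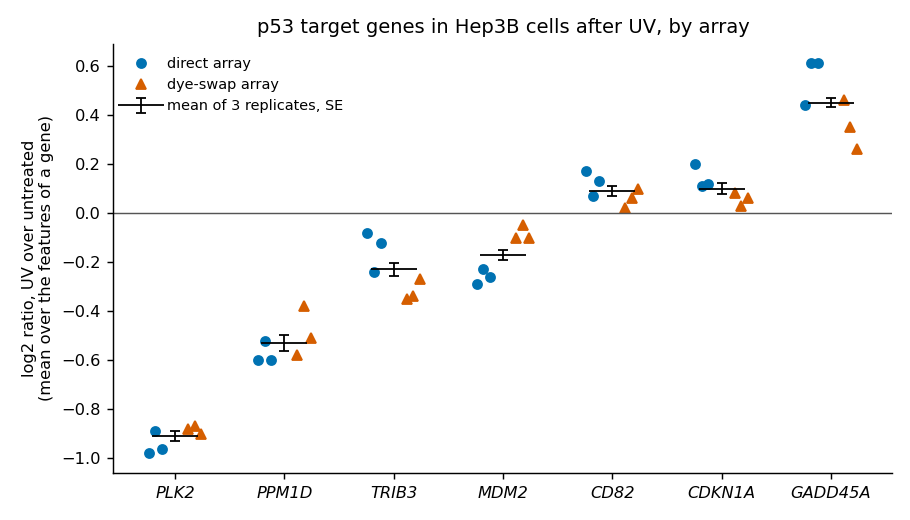
Log2 ratio of UV over untreated (vertical axis) for each of the 7 genes on the 3 direct arrays (circles, left) and 3 dye-swap arrays (triangles, right), with the mean of 3 replicates and its SE (bars). All 6 arrays lie below 0 for PLK2, PPM1D, TRIB3 and MDM2 and above 0 for CD82, CDKN1A and GADD45A, and the direct and dye-swap points of TRIB3 and MDM2 differ.

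Ordered by value, PLK2 at -0.91 was followed by PPM1D at -0.53, TRIB3 at -0.23, MDM2 at -0.17, CD82 at 0.09, CDKN1A at 0.10 and GADD45A at 0.45. The replicate values of neighbours in this order overlapped for CD82 and CDKN1A only. TRIB3 and MDM2 were in this order in 3 of 3 replicates but on 4 of 6 arrays, so their order depends on the dye orientation. The gaps on either side of PPM1D and the gap between CDKN1A and GADD45A held on 6 of 6 arrays.

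**Figure D2:**
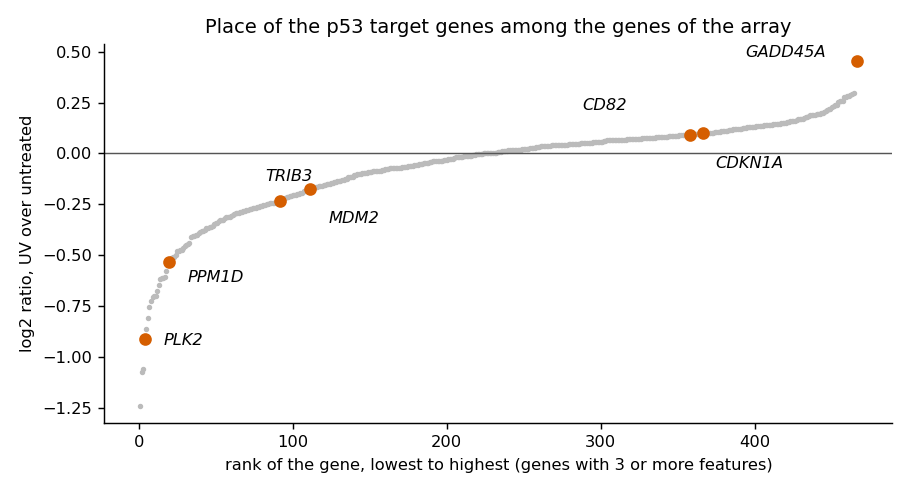
Mean log2 ratio (vertical axis) of the 466 genes with 3 or more features, ranked from lowest to highest (horizontal axis), with the 7 p53 target genes as large points. PLK2 stands 4th from the low end and GADD45A at the high end, and CD82 and CDKN1A lie in the flat middle part of the curve at 0.09 and 0.10.

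Promoter sequences are printed for 3 members, chosen because a searched motif was found in them and not by the size of their change. They are the 250 bases before a start, taken from RefSeq (GRCh38.p14), which held promoters for 6 of the 7 members. Capitals mark TGACGT in PLK2, TGACGTCA in PPM1D, and in MDM2 a match to the p53 consensus, a 20-base motif made of a pair of 10-base elements that reads alike on both strands, with 2 mismatches. The PLK2 promoter lies at chr5:58460087-58460336 on the minus strand and that of PPM1D at chr17:60599943-60600192 on the plus strand. The printed MDM2 promoter, a downstream one, lies at chr12:68808767-68809016 on the plus strand. A further downstream MDM2 window, at chr12:68808774-68809023, held the same bases at -101 to -82 and is not printed.
PLK2: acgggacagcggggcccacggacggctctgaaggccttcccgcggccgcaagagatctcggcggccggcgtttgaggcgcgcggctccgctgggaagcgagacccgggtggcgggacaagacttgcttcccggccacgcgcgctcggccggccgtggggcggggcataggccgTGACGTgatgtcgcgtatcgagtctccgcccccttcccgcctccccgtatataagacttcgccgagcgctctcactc
PPM1D: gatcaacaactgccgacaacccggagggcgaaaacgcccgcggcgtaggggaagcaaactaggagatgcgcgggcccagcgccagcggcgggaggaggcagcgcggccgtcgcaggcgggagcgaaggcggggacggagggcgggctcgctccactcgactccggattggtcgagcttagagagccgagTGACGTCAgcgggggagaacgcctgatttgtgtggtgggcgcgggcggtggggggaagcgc
MDM2: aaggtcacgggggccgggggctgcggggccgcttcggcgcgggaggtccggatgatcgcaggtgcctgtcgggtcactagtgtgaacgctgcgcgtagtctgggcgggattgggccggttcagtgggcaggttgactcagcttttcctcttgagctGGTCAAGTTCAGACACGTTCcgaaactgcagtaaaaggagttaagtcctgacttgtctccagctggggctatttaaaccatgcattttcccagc

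The marked bases ran from -77 to -72 in PLK2, -61 to -54 in PPM1D and -94 to -75 in MDM2, counted back from the start. For the p53 consensus, only stretches that kept the fixed C and G of each element were scored. Stretches without them were left out and may hold fewer mismatches. Among scored stretches, a match with at most 2 mismatches stood in 85 of 35116 promoters (0.242%). Among the members it stood only in MDM2, whose scored stretches at the upstream starts came no closer than 8 mismatches. TGACGTCA, its own reverse complement, was in 1.65% of promoters, and TGACGT, which it contains, was in 7.10% on either strand. The other members with a promoter (TRIB3, CD82 and CDKN1A) held neither. A match describes these letters in this window only, and the windows do not reach the distal elements through which p53 is known to act on some of its targets.

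CDKN1A encodes p21, the inhibitor of cyclin-dependent kinases through which p53 arrests the cell cycle, and is the most widely used readout of p53 activity. Its 56 features averaged 0.20, 0.11 and 0.12 on the direct arrays and 0.08, 0.03 and 0.06 on the dye-swap arrays. All 6 arrays lay above 0, but none of them by more than 0.20. The gene value was 0.10 (SE 0.022, n = 3, adjusted p = 0.0179), the 99th highest of 466. On the direct arrays it averaged 0.15 and on the dye-swap arrays 0.06, a difference that was called (adjusted p = 0.0441). With dye-swap arrays only, the rise was not called (0.06, adjusted p = 0.0879), nor was it without replicate 1 (0.08, adjusted p = 0.129) or without replicate 3 (0.10, adjusted p = 0.117). Of 46 features tested, 16 were higher, none was lower and none passed 1.3-fold, beside 54.5% of all features tested that were called, 26.3% higher and 28.2% lower, and 13.8% that passed 1.3-fold in either direction. The count of calls was 6 without replicate 1, 4 without replicate 3 and 13 on dye-swap arrays alone, 4 of those lower. Feature values ran from -0.04 to 0.31, and 26 of them lay within 0.1 of 0.

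GADD45A encodes a small nuclear protein that binds PCNA and the mitotic kinase CDK1 and is induced by many kinds of DNA damage. Its 35 features averaged 0.44, 0.61 and 0.61 on the direct arrays and 0.46, 0.35 and 0.26 on the dye-swap arrays. The lowest array, at 0.26, was above the highest array of any other member. The gene value was 0.45 (SE 0.019, n = 3, adjusted p = 0.000234), and the replicates, at 0.45, 0.48 and 0.43, were close together. The direct and dye-swap means were 0.55 and 0.36, a difference that was not called (adjusted p = 0.114) except without replicate 1 (adjusted p = 0.0199). TNF, which encodes a cytokine under NF-kB control, had nearly the same value (0.45, SE 0.026, 22 features), so that the first place of GADD45A over TNF is within the error. These were the 2 genes with 3 or more features that passed 1.3-fold upwards.

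The rise of GADD45A was spread over nearly all of its features. Of 33 tested, 28 were higher and 27 of these passed 1.3-fold, beside 2.21% of all features tested, with a median of 0.53 and 24 features above 0.5. The other 5, from 0.04 to 0.12, were not called. One feature, at 1.04, rested on a single spot, chosen here after its values were seen: it read 3.22 on dye-swap array 1 and from 0.27 to 0.96 on the other 5 arrays. Without this feature the gene value was 0.44 (SE 0.022, adjusted p = 0.00036).

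PLK2 encodes a polo-like kinase that acts in centriole duplication. Its 47 features averaged -0.98, -0.89 and -0.96 on the direct arrays and -0.88, -0.87 and -0.90 on the dye-swap arrays. All 6 arrays lay between -0.98 and -0.87, and both orientations gave nearly the same value, -0.94 on direct and -0.89 on dye-swap arrays (adjusted p of the difference = 0.174). PLK2 as a gene was at -0.91 (SE 0.020, n = 3, adjusted p = 7.39e-05). Of 45 features tested, 40 were lower and none was higher, and 33 were lower past 1.3-fold, beside 11.6% of all features tested. Of these, 24 passed 2-fold.

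The features of PLK2 fell into a low and a near-zero set rather than around the gene value. From -1.78 up to -1 lay 24 features, between -1 and -0.5 another 9, and between -0.5 and -0.25 only 1, which leaves 11 of 45 above -0.25. The median feature, at -1.12, was lower than the gene value of -0.91. The lowest, feature 40833 of the table, read -1.87, -1.73 and -1.80 on the direct arrays and -1.72, -1.79 and -1.79 on the dye-swap arrays. Feature 13814, at the other end, read 0.15, 0.08 and -0.04 on the direct arrays and -0.12 and 0.01 on dye-swap arrays 1 and 3, with no value on the second. The ratio of the PLK2 transcript thus depended on which of its features was read, by more than the spread between arrays.

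**Figure D3:**
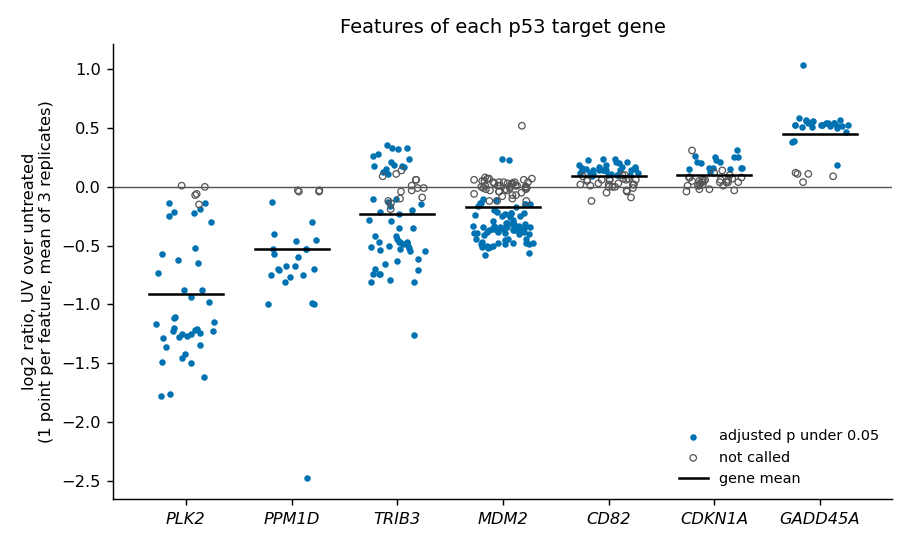
Log2 ratio of UV over untreated (vertical axis) of each tested feature of the 7 genes, 1 point per feature as the mean of its replicates, filled where called at an adjusted p under 0.05 and open where not, with the gene mean as a line. The features of PLK2 run from -1.78 to 0.01 and those of TRIB3 from -1.26 to 0.36, whereas those of CD82 stay between -0.12 and 0.24.

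MDM2 encodes the ubiquitin ligase that marks p53 for degradation, and had the most features of the 7 genes. Its 185 features averaged -0.29, -0.23 and -0.26 on the direct arrays and -0.10, -0.05 and -0.10 on the dye-swap arrays. All 6 arrays were below 0, and the orientations did not overlap. The gene value was -0.17 (SE 0.020, n = 3, adjusted p = 0.00295), but it was -0.26 over direct and -0.09 over dye-swap arrays, and this difference was itself called (adjusted p = 0.00685), beside 51.9% of genes with such a call (24.6% with direct arrays lower and 27.2% higher). A fall of MDM2 was therefore measured in each orientation, with a size that was not settled by the arrays.

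Of 124 features of MDM2 tested, 75 were lower and 2 higher, with 26 lower past 1.3-fold, beside 28.2% lower, 26.3% higher and 11.6% lower past 1.3-fold over all features tested. A set of 42 lay within 0.1 of 0 and another of 53 between -0.5 and -0.25, and the median was -0.22. Features with a value on all 6 arrays and those with empty cells differed. The 107 complete features had a median of -0.30 and the 73 incomplete ones of 0.00, and 5 had no value at all. Over all named features the median size of the log2 ratio was 0.138 for 30881 complete and 0.06 for 8182 incomplete features. The reason for an empty cell is not stated in the methods or labels, and its part in the gene value was tested only by the fit on complete features. That fit kept MDM2 and the other 6 members called, and none came closer to 0. It moved MDM2 from -0.17 to -0.23 and PPM1D from -0.53 to -0.62.

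PPM1D encodes WIP1, a phosphatase that removes phosphate from p53 and from kinases of the damage response. Its 37 features averaged -0.60, -0.52 and -0.60 on the direct arrays and -0.58, -0.38 and -0.51 on the dye-swap arrays. All arrays were at or below -0.38, and replicate 2, at -0.45, was above replicates 1 (-0.59) and 3 (-0.55). Over the replicates PPM1D was at -0.53 (SE 0.033, n = 3, adjusted p = 0.000559), and the difference between the direct and dye-swap means, -0.57 and -0.49, was not called (adjusted p = 0.108). It was called with the median over features (adjusted p = 0.00948) and without replicate 1 (adjusted p = 0.0472). Of 27 features tested, 23 were lower, 21 of them past 1.3-fold, and none was higher, beside 28.2% lower and 11.6% lower past 1.3-fold over all features tested. The median feature was at -0.60. As in MDM2, the 10 features with empty cells lay near 0, with a median of -0.04.

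CD82 encodes a tetraspanin of the cell membrane known as a suppressor of metastasis. Its 72 features averaged 0.17, 0.07 and 0.13 on the direct arrays and 0.02, 0.06 and 0.10 on the dye-swap arrays. All arrays were above 0, and the orientations overlapped. CD82 as a gene was at 0.09 (SE 0.019, n = 3, adjusted p = 0.0144), the 109th highest of 466. As for CDKN1A, the call was lost with dye-swap arrays only (0.06, adjusted p = 0.0909), without replicate 1 (0.09, adjusted p = 0.105) and without replicate 3 (0.08, adjusted p = 0.132). Of 61 features tested, 33 were higher (54.1% called, beside 54.5% of all features tested) and none passed 1.3-fold. The count was 5 without replicate 1, 2 without replicate 3 and 18 on dye-swap arrays alone, 5 of those lower.

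TRIB3 encodes a pseudokinase best known as a target of ATF4 under endoplasmic reticulum stress. Its 77 features averaged -0.08, -0.24 and -0.12 on the direct arrays and -0.35, -0.34 and -0.27 on the dye-swap arrays. All arrays were below 0, with every dye-swap array lower than every direct array. The gene value was -0.23 (SE 0.026, n = 3, adjusted p = 0.00248), with -0.15 over direct and -0.32 over dye-swap arrays, a difference that was called (adjusted p = 0.0322). TRIB3 and MDM2 thus differed between orientations in opposite directions.

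Over both orientations, TRIB3 had more features called against the direction of the gene than any other member. Of 71 tested, 41 were lower, 29 of them past 1.3-fold, beside 28.2% and 11.6% of all features tested, and 15 were higher, none past 1.3-fold, beside 26.3% of all features that were higher. The 41 lower features had medians of -0.32 on direct and -0.64 on dye-swap arrays, and all 41 were below 0 in both orientations. The 15 higher features had medians of 0.27 on direct and 0.16 on dye-swap arrays, and 13 of them were above 0 in both. The count of higher features was 7 without replicate 1 and 6 without replicate 3. MDM2 had 2 higher features, none of them called without replicate 1 or 3, and over both orientations the other 5 members had calls in 1 direction. On dye-swap arrays alone calls went both ways in MDM2 (60 lower, 8 higher), CD82 (5 and 13), CDKN1A (4 and 9) and PLK2 (38 and 2), and in CD82 also on direct arrays alone (2 and 26).

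**Figure D4:**
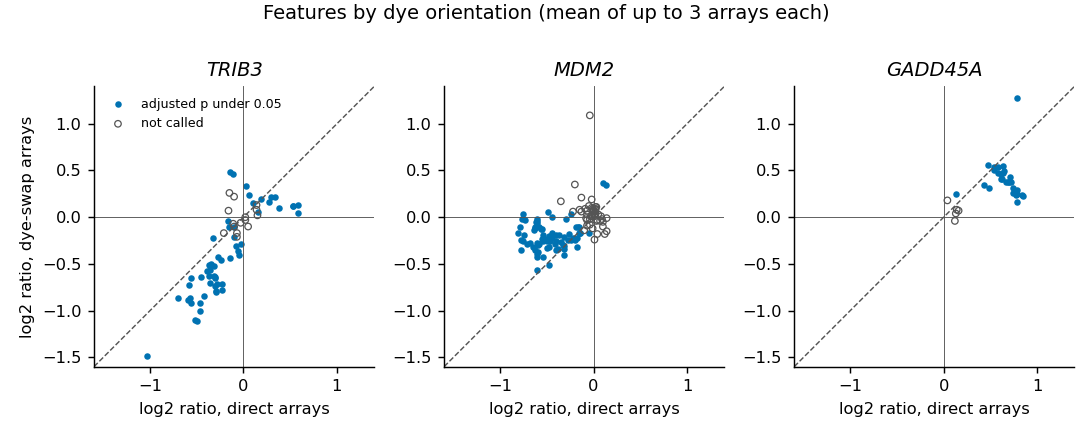
Mean log2 ratio of each tested feature on the direct arrays (horizontal axis) against the dye-swap arrays (vertical axis) for TRIB3, MDM2 and GADD45A, filled where called, with the line of equal values dashed. Most lower features of TRIB3 lie below the line, those of MDM2 above it, and most called features of GADD45A spread along a slope that falls from left to right, with 1 feature at 1.28 on the dye-swap arrays.

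Single features were called for a difference between orientations in 183 of 407 features of the members, close to the 48.6% of all features tested. How far the orientations ordered the features alike differed between members. Across features with a value on all 6 arrays, direct and dye-swap means correlated at r = 0.94 in PPM1D (27 features), 0.90 in PLK2 (40) and 0.81 in TRIB3 (69), at 0.51 in MDM2 (107) and 0.43 in GADD45A (33), and at -0.24 in CDKN1A (36) and -0.39 in CD82 (52). Features of a gene share their RNA and their arrays and are not independent replicates. In PPM1D, PLK2 and TRIB3, then, a feature low in one orientation tended to be low in the other, which held less in MDM2 and GADD45A and not in CDKN1A and CD82.

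The departure of a feature from the other features of its gene was taken as its log2 ratio minus the mean of the others. It was called at an adjusted p under 0.05 and a fold over 1.4. The methods took the same fold for splicing changes, with a z score and a p limit that were not applied here. Of 407 features of the members tested, 38 were called (9.34%), 16 lower and 22 higher, beside 3.92% of all features tested (2.16% lower and 1.76% higher). They lay in PLK2 (19 of 45), TRIB3 (14 of 71) and PPM1D (5 of 27). None of the features of MDM2, CD82, CDKN1A and GADD45A was called, although those of MDM2 were the most numerous. Some of them missed the call by the fold limit only. Feature 3412 of GADD45A departed by -0.43 (adjusted p = 0.000424) and feature 42957 of MDM2 by -0.42 (adjusted p = 0.000132). With no fold limit, 16815 of 33992 features over all genes were called. Which exon or junction a feature reads is not annotated, and no isoform is named.

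In PLK2, 7 features departed downwards, by -0.89 to -0.52, with log2 ratios of their own from -1.78 to -1.42. Another 12 departed upwards, by 0.62 to 0.95, with ratios of their own from -0.30 to 0.01, of which 7 were still called lower. The upward set was thus made of features with little or no fall beside others that fell strongly. No feature of PLK2 was called higher over both orientations, and 2 were on dye-swap arrays alone. The extremes were feature 40833 (departure -0.89, SE 0.026, adjusted p = 5.93e-06) and feature 13814 (0.95, SE 0.035, adjusted p = 2.95e-05).

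In PPM1D a single feature stood far below the rest. Feature 5397 read -2.68, -2.37 and -2.48 on the direct arrays and -2.51, -2.27 and -2.55 on the dye-swap arrays. Its log2 ratio was -2.48 (SE 0.056), a 5.57-fold fall and the lowest among the features of the 7 genes tested, and it departed by -2.01 (SE 0.035, adjusted p = 3.25e-06). The 4 features that departed upwards, by 0.51 to 0.52, had ratios of their own from -0.04 to -0.03. The highest of them, feature 15045 (departure 0.52, SE 0.037, adjusted p = 8.76e-05), read 0.03, 0.10 and -0.04 on the direct arrays and -0.05, 0.02 and -0.22 on the dye-swap arrays, and its departure was under the fold limit on dye-swap arrays alone (0.42) and without replicate 1 (0.48).

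In TRIB3, 8 features departed downwards, by -1.04 to -0.49, and 6 upwards, by 0.50 to 0.60. The lowest was feature 31854, with -0.95, -1.12 and -1.02 on the direct arrays and -1.45, -1.53 and -1.50 on the dye-swap arrays (departure -1.04, SE 0.029, adjusted p = 4.61e-06). The highest was feature 32800, with 0.65, 0.50 and 0.59 on the direct arrays and 0.10, 0.14 and 0.16 on the dye-swap arrays (departure 0.60, SE 0.026, adjusted p = 1.98e-05). Here the upward set differed from that of PLK2, since all 6 features were also called higher in their own right, at 0.26 to 0.36. Both extremes kept their sign in both orientations, with sizes that differed between them (adjusted p = 0.00206 and 0.00319). The departure of feature 32800 was under the fold limit on dye-swap arrays alone (0.46).

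**Figure D5:**
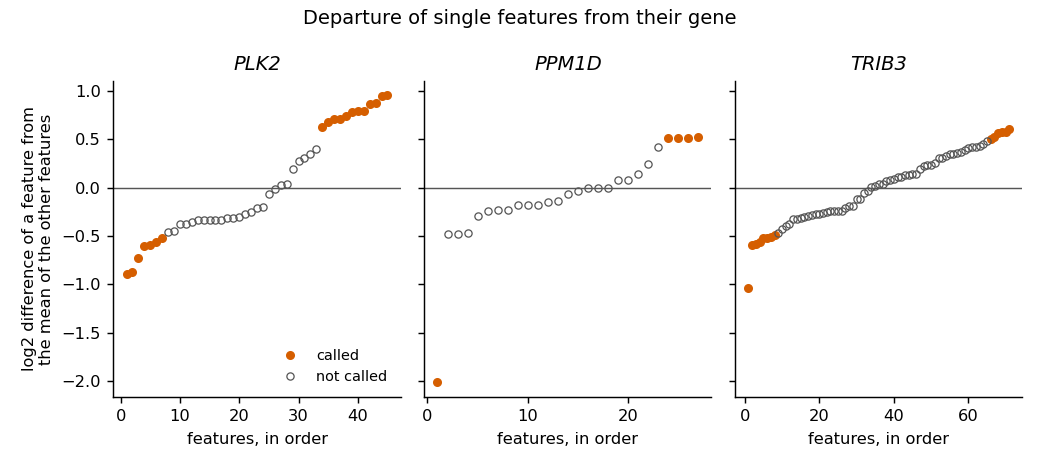
Log2 difference of each tested feature from the mean of the rest of its gene (vertical axis) for PLK2, PPM1D and TRIB3, in rising order (horizontal axis), filled where called. PLK2 shows 12 called features above 0 that are set off from the rest, PPM1D 1 feature at -2.01, and TRIB3 an even slope with 1 feature at -1.04.

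Other genes of the pathway were counted from lists of known p53 targets and neighbouring pathways, described by counts beside the background of 41.4% lower and 30.3% higher. Among arrest and feedback targets, 2 genes that are not members were tested. CCNG1, which encodes cyclin G1 and was represented by 1 feature, was at -0.63 (SE 0.034) and PLK3, a polo-like kinase with 51 features, at -0.20 (SE 0.017), and both were called lower. With them the list had 6 lower and 3 higher of 9 tested, and a median of -0.20. Among the 10 apoptosis targets tested, 5 were lower, 1 was higher and 4 were not called, with a median of -0.05. Of the 10, 5 had 1 feature. Over the array, genes with 1 feature had a median of -0.13 and those with 3 or more 0.01. In the fit on genes with 3 or more features, 1 of 5 apoptosis targets was lower and 1 higher. Both extremes of that list rested on 1 feature each: BBC3, which encodes the proapoptotic protein PUMA, at -1.21 (SE 0.040) and PMAIP1, which encodes NOXA, at 0.99 (SE 0.028).

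Among 11 tested genes of the p53 family and its regulators, 4 were lower, 2 were higher and 5 were not called, and none passed 1.3-fold. ATM, counted as lower, was at -0.19 on direct and 0.03 on dye-swap arrays, so its direction was not settled. The largest calls were CHEK1, a checkpoint kinase gene, at -0.25 (SE 0.024) and TP73, a gene of the p53 family, at 0.18 (SE 0.031). MDM2 was the only member on that list. Of 5 CDK inhibitor genes, CDKN1A and CDKN2A (0.12, SE 0.018) were called higher. CDKN1B, with 1 feature, was called lower at -0.15 (SE 0.027), but was at -0.49 on direct and 0.19 on dye-swap arrays, so its direction was not settled.

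TRIB3 and PLK2 were also read against the lists they share with other pathways. Of 14 listed ATF4 and stress response genes, only TRIB3, JUN, FOS, MYC and DUSP1 were tested, and ATF4 itself was not. The list therefore says little about ATF4 targets other than TRIB3. Of the 5 tested, 4 were lower and 1 higher, with a median of -0.48. TRIB3 was the smallest fall among them, the largest was that of MYC (-0.70, SE 0.016), and FOS was higher at 0.28 (SE 0.024). Of 11 polo-like and mitotic kinase genes, 10 were lower and none was higher, with a median of -0.33. AURKB, counted as lower, was at 0.02 on direct and -0.15 on dye-swap arrays, so its direction was not settled either. PLK2 was the lowest with more than 1 feature, and WEE1, with 1 feature, was at -1.53 (SE 0.029). Of 9 NF-kB targets, 5 were lower, led by NFKBIA (-0.75, SE 0.021), and TNF alone was higher. TRAF1, counted as lower with 1 feature, was at -0.36 on direct and 0.02 on dye-swap arrays, so its direction was also not settled. No gene of the list of repair and metabolism targets could be tested.

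The genes most like each member over the 6 arrays, by the mean absolute difference among 465 others with 3 or more features, were SOS1 for PLK2 (0.104), TGFBR2 for PPM1D (0.040), MKNK2 for TRIB3 (0.0457), SF3B1 for MDM2 (0.0177), MST1R for CD82 (0.013), ELAC2 for CDKN1A (0.0185) and TNF for GADD45A (0.117). PLK2 and GADD45A, at the ends of the range, had no gene as close as the others did. MKNK2 shared the lower dye-swap values of TRIB3, at -0.01, -0.21 and -0.06 on direct and -0.30, -0.37 and -0.24 on dye-swap arrays. SF3B1 shared the lower direct values of MDM2, at -0.28, -0.20 and -0.26 on direct and -0.07, -0.04 and -0.12 on dye-swap arrays. Both genes were picked for likeness over these same 6 arrays, so their shared orientation pattern follows in part from the choice.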

How the data were processed

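RNA of irradiated and untreated Hep3B cells was hybridized to 6 two-colour splicing-sensitive arrays. The deposited values are log2 ratios, for which the authors corrected background (normexp), normalized by LOWESS and used limma; the probes of a locus were averaged for gene expression. The scale follows the methods. The direction, UV over untreated, follows the dyes in the labels, and since columns correlated at r = 0.84 to 0.94 within and 0.54 to 0.66 between orientations, the dye-swap columns were taken as already turned. Per array 36532 to 38392 features had a value, 15.1% to 19.2% of cells were empty (9.6% to 17.5% of the members' features), and medians lay from -0.01 to 0.01. The depth of arrays is set by their number, which limits the precision. Scanner signals were not used here, so dim features were not filtered.

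Features were named from the platform annotation, updated through RefSeq by accession (38971), symbol (978) or synonym (197), and 5074 stayed unnamed. No genome build for the array is named in those sources, so features have no coordinates. Only features with both orientations in at least 2 replicates were tested, which left out 102 of 509 features of the members, 8 of which had no value. Spots of one probe could not be matched and were not averaged. Tests were limma 3.58.1 (R 4.3.3, statmod 1.5.0), intercept against 0, two-sided, Benjamini-Hochberg over all genes or features. The SE leaves out a difference between orientations that repeats across replicates, which was tested on the difference of direct and dye-swap arrays.

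The titles pair direct and dye-swap arrays by replicate number. Deviations of paired arrays from the mean of their orientation correlated at -0.007, 0.452 and 0.101 for replicates 1, 2 and 3 over 32338 features, and those of direct array 1 and dye-swap array 3 at 0.425. The procedures were tested on simulated data. Members and gene lists were chosen with earlier results of these data known. Named were the 7 members, the extreme called departures of each and the gene nearest to each. Of each list, the called genes with the largest fall and rise were named, and of the ATF4 and stress response list all tested genes. CCNG1, PLK3, ATM, AURKB, TRAF1, features with a single far spot and departing features under the fold limit were named after their values were seen. Alternatives covered scaling, orientation, a replicate block, thresholds, a dye term, each replicate left out, a robust prior, complete features, the median over features and the reference of a departure.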

Additional observations from a re-analysis of the deposited data

Results flagged for a closer look

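The log2 ratio of 3 members differed between dye orientations by the test of the difference itself, given here as the distance of either orientation from the mean of both, with a positive sign where direct arrays were higher. For TRIB3 it was 0.09 (adjusted p = 0.0322), with -0.15 on direct and -0.32 on dye-swap arrays. For MDM2 it was -0.09 (adjusted p = 0.00685), with -0.26 and -0.09, and for CDKN1A it was 0.04 (adjusted p = 0.0441), with 0.15 and 0.06. The difference was called in 51.9% of all genes. Its call was lost without replicate 2 or 3 in TRIB3 (adjusted p = 0.0778 and 0.147), MDM2 (0.0741 and 0.0640) and CDKN1A (0.216 and 0.144), each fit of 2 replicates, and with the median over features in TRIB3 (0.06, adjusted p = 0.141) and CDKN1A (0.03, adjusted p = 0.159). In PPM1D and GADD45A, where it was not called, it was called without replicate 1 (-0.06, adjusted p = 0.0472, and 0.15, adjusted p = 0.0199), and in PPM1D also with the median over features (-0.09, adjusted p = 0.00948).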

How the results depend on the processing

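Over 19 alternatives no member changed sign. Those that alter only the threshold, the prior, the block or the set of other genes leave a member's value as it was. Leaving out the GADD45A feature cannot change the other members. PLK2 (-1.10 to -0.89), PPM1D (-0.62 to -0.49) and GADD45A (0.36 to 0.55) stayed called in all 19, TRIB3 (-0.32 to -0.15) and MDM2 (-0.26 to -0.09) in 18, and CD82 and CDKN1A in 14. Under the methods' rule, an unadjusted p of 0.01 with a fold over 1.3, TRIB3 (-0.23), MDM2 (-0.17), CD82 (0.09) and CDKN1A (0.10) were not called, which left 3 members of 7 and 162 genes in place of 556. By that rule 4 arrest and feedback targets, 3 apoptosis targets, none (0) of the p53 family and its regulators, 3 stress genes, 3 NF-kB targets, 5 kinases and 0 CDK inhibitors were called. At an adjusted p of 0.01, CD82 (0.09) and CDKN1A (0.10) were lost, as on dye-swap arrays alone (0.06 each). With 1 replicate left out, CD82 ranged from 0.08 to 0.11, CDKN1A from 0.08 to 0.12, the genes called from 311 (without replicate 3) to 637 and the members called from 5 to 7. Over the same fits, apoptosis calls ranged from 3 to 6, family calls from 2 to 9 and CDK inhibitor calls from 0 to 3, with the lowest count without replicate 3 each time, and family calls were 3 without replicate 1. Feature calls ranged from 9839 to 18062 beside 18693, and orientation calls from 124 to 435 beside 402. Genes with 3 or more features alone gave 366 calls, 2 of them apoptosis targets. Departures numbered 1331, and 2014 on dye-swap arrays alone, 130 with a fold over 2 and 16815 with no fold limit. In PPM1D the 5 departures became 12 on direct arrays alone, 3 without replicate 1 and 9 without replicate 2, and in TRIB3 the 14 became 8 on direct arrays alone. With a replicate block over the 6 arrays, 589 genes were called, and all 7 members stayed called. The fitted correlation within a replicate was negative there, at -0.506. A negative correlation by itself narrows the SE of a mean, so these kept calls are a weak check. With a dye term as well the correlation was 0.38, and 579 genes and all 7 members were called. The causes were not tested. A stricter rule calls fewer by its making. A left-out replicate lowers the number of samples, and calls did not fall each time: without replicate 2, 637 genes were called beside 556. Choices added after seeing the data (single far spots left empty, GADD45A without 1 feature) changed no member's call.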

Other observations

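Single spots far from the other arrays, chosen here after their values were seen, were counted as those over 1 log2 unit from the median of the other 5 arrays. Dye-swap array 1 had 159 among 32338 complete features (0.492%) and the other arrays 69 to 106. Of the members, 3 features had such a spot, each on dye-swap array 1: the GADD45A feature given above, 1 of MDM2 with 3.08 beside -0.08 to 0.16 on the other arrays, and 1 of CDKN1A with 1.61 beside -0.04 to 0.09. The MDM2 and CDKN1A features were not called (adjusted p = 0.192 and 0.154).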
